A study of Schmidtea mediterranea with 58 samples.

Results

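The 140 transcripts described here were the ones that stood highest 6 hours post amputation (hpa) in control planarians, out of 28742 transcripts in the deposited count table. They were chosen on control libraries alone. Counts were divided by the total of their library and multiplied by 1000000 to give CPM, and L was taken as log2 of the median CPM of a group plus 1. A member had a highest control median of at least 5 CPM, its highest L at 6 hpa and an L at least 0.6 above that at 0 hpa. With no minimum rise, 1199 of the 12544 transcripts that reached 5 CPM in control stood highest at 6 hpa. The values of control animals therefore chose the members, and they are given below as a description with no test. The values of *equinox* RNAi animals took no part in the choice.

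The libraries came from anterior-facing wounds in the region behind the pharynx of *Schmidtea mediterranea*, a flatworm that rebuilds missing body parts, and all animals were of the clonal asexual strain CIW4. Every animal was fed liver mixed with double-stranded RNA 8 times, either against *unc-22* of *Caenorhabditis elegans*, which has no target in planarians and served as the control, or against *equinox*. RNA was taken at once (0 hpa) and after 3, 6, 16, 24 or 48 hours, with 5 wounds pooled in each library, and the 58 libraries held 29 of each treatment. There were 5 libraries in each group, except for 4 in control at 48 hpa and 4 in *equinox* RNAi at 0 hpa. The labels put amputation 7 days after the 8th feeding, but the sources do not give 1 common interval.

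Planarian wounds of every kind switch on a first wave of transcripts within hours, in muscle, epidermis and the dividing stem cells called neoblasts. Wounds that remove tissue go on to a later and longer response, in which neoblasts gather at the wound and a blastema, the bud of new tissue, forms. The *equinox* gene encodes a predicted secreted or membrane protein made in the epidermis at wounds, and animals in which it is inhibited form no blastema. A peak at 6 hpa falls in the early response, before neoblasts gather.

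Total counts ran from 1312330 to 38053378 in a library, and the share on mitochondrial transcripts from 0.264% to 0.652%. The targeted transcript, dd_20318, stood at 2.95 to 38.3 CPM in the libraries labelled *equinox* RNAi at 0 hpa and at 1.64 to 32.7 CPM at 3 hpa, against 4.56 to 7.75 and 4.53 to 6.86 CPM in control. At those 2 times the level of dd_20318 goes against the label in several libraries, so a change from 0 hpa below is a change between libraries labelled *equinox* RNAi. At 6 hpa dd_20318 was at 1.57 to 3.72 CPM in *equinox* RNAi and 3.27 to 10.5 CPM in control, and from 16 hpa on at 0.827 to 4.24 and 5.10 to 17.7 CPM. The labels of 5 *equinox* RNAi libraries, replicate 1 at each time after 0 hpa, give another time in the time field than in the title, which was used here. In each of them the time field gives the time point before that of the title.

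The members were mostly transcripts of moderate level. Their control median at 6 hpa ran from 5.12 to 4845 CPM with a median of 23.1 CPM, 31 members were over 100 CPM and 20 were under 10 CPM. The difference of L between 6 and 0 hpa in control ran from 0.603 to 4.67 with a median of 1.35, and 51 members lay under 1 while 17 were at 3 or more. Just inside the limit stood dd_4665 at 0.604 and dd_1679 at 0.603, and just outside it dd_6270 at 0.595 and dd_13298 at 0.592. Together the members took from 0.509% to 5.11% of the counts of a library.

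Few members can be given a name. The annotation used here covered 1200 transcripts, and 7 members were among them, of which 3 carried a protein domain or a translated match. Another annotation supplied with the study gives a different human match for nearly every transcript that both cover. Only the first was used, so the names and domains in this report are provisional. The transcript dd_1003 holds a tetraspanin domain and matches human TSPAN5, and tetraspanins are membrane proteins that organise other proteins at the cell surface. The transcript dd_10452 holds a C-type lectin domain, a fold that in many animal proteins binds sugars. The third, dd_10442, holds a RING-type zinc finger, a fold found in many ubiquitin ligases. The remaining members are given by their number in the transcriptome, where dd_511 stands for dd_Smed_v6_511_0_1 and dd_51_1_1 for dd_Smed_v6_51_1_1.

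The control time courses fell into 4 shapes. A member was called early where at least 50% of its 6 hpa difference was present at 3 hpa and delayed otherwise, and held where at least 50% was still present at 16 hpa and transient otherwise. Most members, 96, were delayed and transient, 24 were early and held, 15 were early and transient, and 5 were delayed and held. In control, 100 members stood below their 0 hpa level at 16 hpa and 106 did so at 48 hpa, where 49.9% of all transcripts of at least 5 CPM did. The 24 early, held members and the 96 delayed, transient members differed in how alike the libraries of a time were up to 6 hpa, and they are described separately. Calls are also given for the 29 held members and the 111 transient members.

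The median over the 24 early, held members was close to the same in the libraries of a time up to 6 hpa. Relative to control at 0 hpa, the median log2 difference over these members lay between -0.09 and 0.01 in the 5 control libraries at 0 hpa, between 0.56 and 0.73 at 3 hpa and between 0.80 and 0.94 at 6 hpa. In *equinox* RNAi it lay between -0.11 and 0.07 at 0 hpa, between 0.34 and 0.58 at 3 hpa and between 0.34 and 0.65 at 6 hpa. At 16 hpa the values ran from 0.52 to 0.79 in control and from 0.41 to 0.68 in *equinox* RNAi. The libraries at 24 and 48 hpa were less alike. At 24 hpa the values ran from 0.0004 to 0.40 in control and from -0.11 to 0.30 in *equinox* RNAi. At 48 hpa they ran from 0.21 to 0.57 and from -0.24 to 0.21. The medians of the 0 hpa and 6 hpa libraries did not overlap in either treatment. Member by member, the *equinox* RNAi libraries at 6 hpa all stood above those at 0 hpa in 13 of the 24, compared with 2.88% of all transcripts tested. In control, where the rule used this contrast, 18 of the 24 did so, as did 2.54% of all. The others overlapped.

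**Figure D1:**
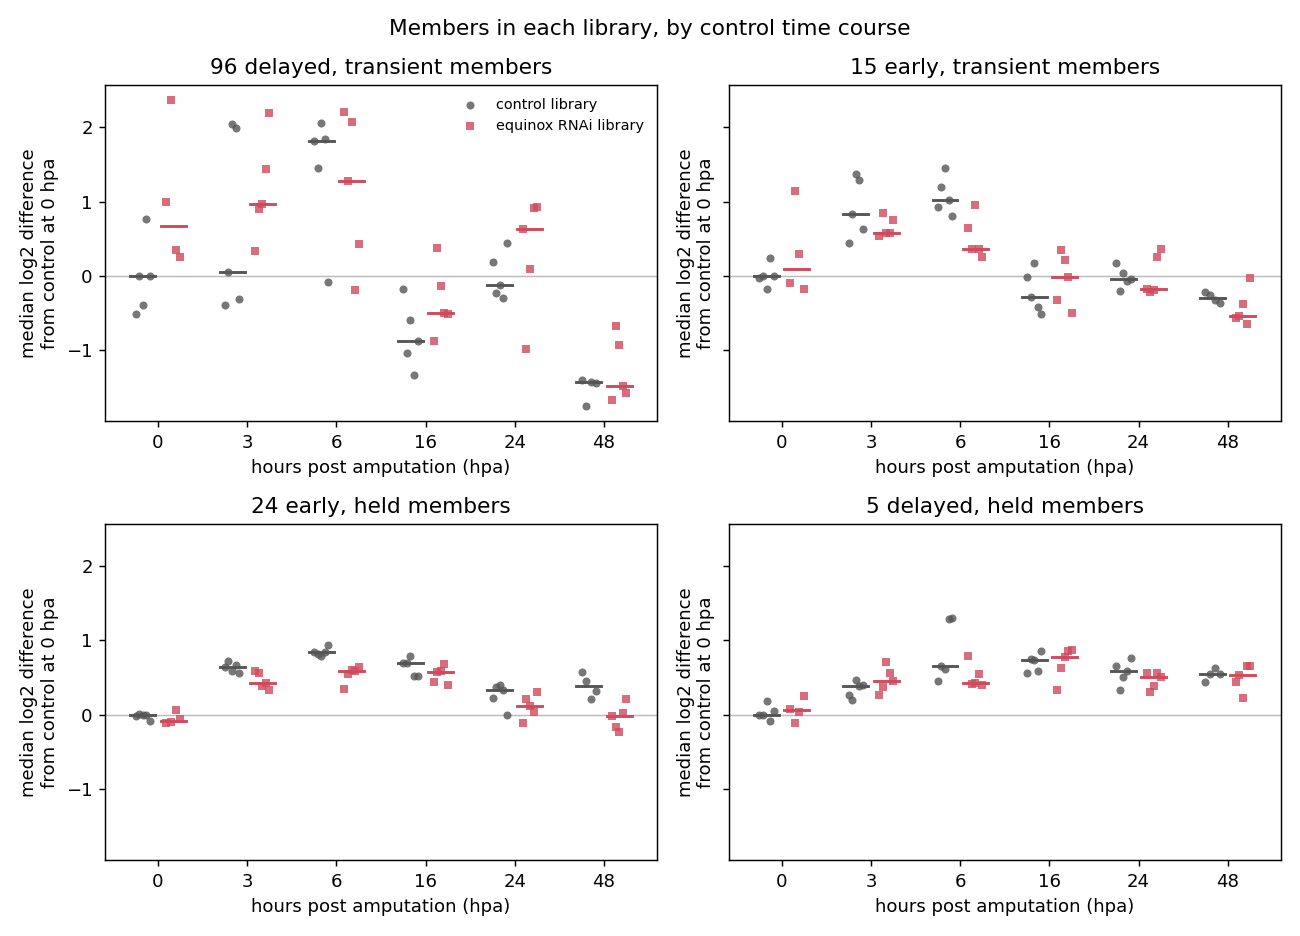
Each point is 1 library, placed by time after amputation (x axis, hpa) and by the median over the members of a shape of the log2 difference from the control median at 0 hpa (y axis). Grey circles are control, red squares *equinox* RNAi and bars are group medians. The 24 early, held members lay between 0.34 and 0.94 in every library at 6 hpa, whereas the 96 delayed, transient members ran from -0.18 to 2.21 at that time.

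The 96 delayed, transient members swung widely between libraries of the same group. In control at 6 hpa the median log2 difference over these members was 1.81, 1.45, 2.06 and 1.85 in replicates 1 to 4 and -0.08 in replicate 5. At 3 hpa it was 2.05 and 1.99 in control replicates 3 and 4, as high as at 6 hpa, and -0.38, 0.06 and -0.31 in the other 3. The 6 hpa peak of these members is thus a property of the group medians and not of every library. Control at 48 hpa was the most even time for them, with values from -1.75 to -1.39.

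The same spread was present in *equinox* RNAi. At 0 hpa the median over the delayed, transient members was 0.99, 2.36, 0.36 and 0.25 in replicates 1, 2, 3 and 5, so that replicate 2 before any wound response stood above every control library at 6 hpa. At 6 hpa it was 2.21, 1.28, 2.07, -0.18 and 0.43 in replicates 1 to 5. The groups at 0 and 6 hpa therefore overlapped for these members. In bulk RNA, fewer cells of a type and less RNA per cell cannot be told apart.

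Single libraries were extreme for most members at once. Replicate 5 of control at 6 hpa was the lowest of its 5 libraries for 102 of the 140 members, where it was lowest for 36.7% of all transcripts of at least 5 CPM. Replicate 4 of control at 0 hpa was the highest for 101 members, against 19.7% of all transcripts. In *equinox* RNAi, replicate 2 at 0 hpa was the highest for 106 members, against 26.3%, and replicate 4 at 6 hpa the lowest for 94, against 10.1%. The members' share of counts moved with this, at 3.64% in replicate 2 against 1.87% to 2.89% in the others at 0 hpa, and at 1.63% in replicate 4 against 2.53% to 5.11% in the others at 6 hpa. What set these libraries apart was not tested.

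Among single members, dd_16222 had the largest difference between 6 and 0 hpa of any held member in control. Its CPM was 0.613, 0.627, 0.119, 0.309 and 0.676 in control at 0 hpa and 32.3, 28.2, 6.87, 32.6 and 43.6 at 6 hpa. In *equinox* RNAi dd_16222 was at 0.708, 0.164, 0.340 and 0.919 CPM at 0 hpa and at 20.6, 27.9, 20.9, 18.4 and 21.3 CPM at 6 hpa. Every library at 6 hpa stood above every library at 0 hpa in both treatments, with means of 0.533 ± 0.343 (SD, n = 4) and 21.8 ± 3.55 CPM (SD, n = 5) in *equinox* RNAi. The fitted log2 fold change of dd_16222 within *equinox* RNAi was 5.19 with an SE of 0.42 (edgeR adjusted p = 4.18e-13). From 16 hpa on dd_16222 was lower in *equinox* RNAi than in control. It was at 8.04 to 12.79 CPM in *equinox* RNAi and at 17.65 to 28.05 CPM in control at 16 hpa. At 24 hpa these were 1.76 to 7.77 and 19.1 to 21.8 CPM, and at 48 hpa 0.888 to 3.10 and 7.15 to 8.62 CPM. The treatments did not overlap at any of these times.

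Another delayed, held member, dd_15499, is named after its values were seen. It was at 0.961 to 2.17 CPM in the *equinox* RNAi libraries at 0 hpa and at 6.15 to 10.9 CPM at 6 hpa, without overlap, against 1.18 to 2.28 and 3.44 to 13.5 CPM in control. The log2 fold change of dd_15499 in *equinox* RNAi at 6 against 0 hpa was 2.47 (edgeR adjusted p = 6.91e-10). Unlike for dd_16222, the log2 ratio of *equinox* RNAi to control was small for dd_15499 at the later times, at -0.39 at 24 hpa and -0.07 at 48 hpa.

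The most abundant held members were dd_511, dd_246, dd_758_1_1 and dd_678, with medians of 1251, 1209, 1193 and 1138 CPM in control at 6 hpa. In control, dd_511 was at 418, 498, 584, 470 and 482 CPM at 0 hpa and at 1245, 1269, 845, 1251 and 1346 CPM at 6 hpa. In *equinox* RNAi, dd_511 was at 522, 406, 454 and 459 CPM at 0 hpa and at 860, 1280, 1206, 1409 and 1319 CPM at 6 hpa. The 2 times did not overlap in either treatment, and the log2 fold change of dd_511 in *equinox* RNAi was 1.48 with an SE of 0.12 (edgeR adjusted p = 7.30e-14). At 48 hpa dd_511 had come back to 367 to 488 CPM in *equinox* RNAi and stood at 620 to 716 CPM in control.

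The transcript dd_678 rose from 280.1 to 377 CPM at 0 hpa to 650.0 to 1091 CPM at 6 hpa in *equinox* RNAi, a log2 fold change of 1.62 with an SE of 0.14 (edgeR adjusted p = 4.74e-13). By 48 hpa dd_678 was at 197 to 280.1 CPM there, below its 0 hpa level with a log2 fold change of -0.51 (edgeR adjusted p = 0.00771), and it was the 1 held member called lower at that time. The transcript dd_246 rose from 442 to 495 CPM to 998 to 1256 CPM at 6 hpa and was still at a mean of 867 ± 97.7 CPM (SD, n = 5) at 48 hpa. Its log2 fold change in *equinox* RNAi was 1.32 at 6 hpa (edgeR adjusted p = 2.77e-09) and 0.85 at 48 hpa (edgeR adjusted p = 4.36e-05). For dd_758_1_1 it was 1.39 at 6 hpa (edgeR adjusted p = 1.17e-13) and -0.14 at 48 hpa (edgeR adjusted p = 0.473).

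The largest called change after that of dd_16222 and dd_15499 at 6 hpa was that of dd_12695, and this member began lower in *equinox* RNAi. It stood at 18.2, 16.3, 18.3, 19.1 and 15.7 CPM in control at 0 hpa and at 9.25, 8.61, 9.52 and 9.62 CPM in *equinox* RNAi, without overlap. At 6 hpa dd_12695 was at 31.2 ± 3.45 CPM in control and at 28.2 ± 4.60 CPM in *equinox* RNAi (SD, n = 5 each), and these libraries overlapped. The log2 fold change of dd_12695 in *equinox* RNAi at 6 against 0 hpa was 1.69 with an SE of 0.12 (edgeR adjusted p = 9.03e-16). In L, the measure of the rule, dd_12695 differed between these times by 1.45 in *equinox* RNAi and by 0.81 in control. At 48 hpa it was at 13.7 to 19.9 CPM in *equinox* RNAi and at 9.15 to 12.01 CPM in control, so the order of the treatments had turned.

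The most abundant member, dd_320, was early and transient. It stood at 2620 to 3670 CPM in control at 0 hpa, with a median of 3059 CPM, and at 4420 to 7391 CPM at 6 hpa, with a median of 4845 CPM. In *equinox* RNAi dd_320 was at 2574, 1805, 2205 and 2336 CPM at 0 hpa and at 3663, 4565, 4181, 4633 and 4638 CPM at 6 hpa, without overlap. Its log2 fold change in *equinox* RNAi was 1.05 with an SE of 0.12 at 6 hpa (edgeR adjusted p = 3.55e-09), 0.02 at 16 hpa and -0.96 at 48 hpa (edgeR adjusted p = 2.86e-08). At 48 hpa the dd_320 libraries of *equinox* RNAi, at 1040 to 1258 CPM, lay below those of control, at 1849 to 2114 CPM.

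**Figure D2:**
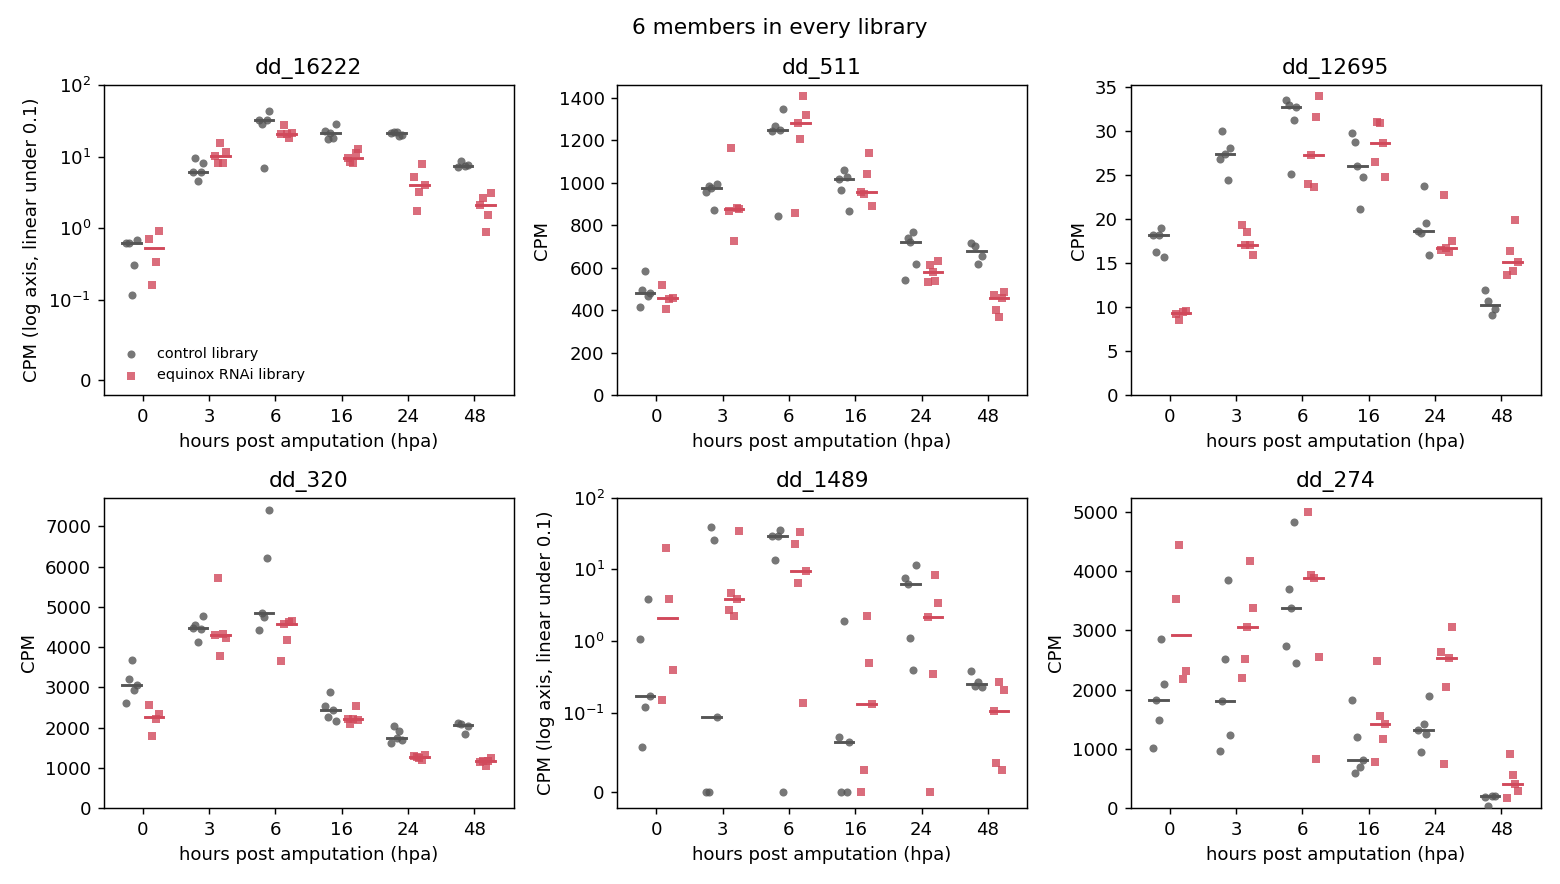
CPM of 6 members (y axis) in every library by time after amputation (x axis, hpa), with grey circles for control, red squares for *equinox* RNAi and bars for group medians. The panels of dd_16222 and dd_1489 have a log axis that is linear under 0.1 CPM, and the others start at 0. The libraries of dd_16222, dd_511, dd_12695 and dd_320 at 6 hpa lay above those at 0 hpa within each treatment, whereas those of dd_1489 and dd_274 overlapped.

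The member with the largest difference of all in control was dd_1489, which was delayed and transient. It was at 1.05, 0.0570, 0.119, 3.81 and 0.169 CPM in control at 0 hpa and at 28.8, 13.4, 29.4, 35.8 and 0 CPM at 6 hpa. In *equinox* RNAi dd_1489 was at 0.152, 19.9, 3.86 and 0.394 CPM at 0 hpa and at 22.6, 6.46, 32.99, 0.136 and 9.46 CPM at 6 hpa. Both comparisons overlapped, and the log2 fold change of dd_1489 in *equinox* RNAi was 1.44 with an SE of 1.16 (edgeR adjusted p = 0.611).

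The transcripts dd_1155, dd_534, dd_367 and dd_1551 completed, with dd_16222, the 6 largest differences in control. Each of these 4 was under 1 CPM in replicate 5 of control at 6 hpa and at 9.68 CPM or more in the other 4 libraries. In *equinox* RNAi at 0 hpa each was highest in replicate 2, at 19.1 CPM for dd_1155, 37.3 CPM for dd_534, 20.8 CPM for dd_367 and 75.4 CPM for dd_1551. Their log2 fold changes in *equinox* RNAi at 6 against 0 hpa ran from 0.07 for dd_1551 to 1.70 for dd_367, and none passed the edgeR test, with adjusted p from 0.503 for dd_367 to 0.990 for dd_1551. The smallest fitted changes at 6 hpa among members of at least 10 CPM were also those of transient members, at -0.42 for dd_3193, -0.37 for dd_1091, -0.30 for dd_53, -0.27 for dd_3759 and -0.20 for dd_2213, with edgeR adjusted p of 0.820 or more.

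The most abundant members after dd_320 were the transient dd_51_1_1, dd_274, dd_2_1_1 and dd_76, with medians of 3444, 3369, 3138 and 2465 CPM in control at 6 hpa. In control dd_274 was at 1017, 1827, 1485, 2848 and 2097 CPM at 0 hpa and at 2728, 3691, 3369, 4830 and 2448 CPM at 6 hpa. In *equinox* RNAi dd_274 was at 3532, 4434, 2183 and 2319 CPM at 0 hpa and at 4990, 3938, 3887, 826 and 2558 CPM at 6 hpa. At 0 hpa the libraries at 3532 and 4434 CPM lay within the control range at 6 hpa and those at 2183 and 2319 CPM below it. The log2 fold change of dd_274 in *equinox* RNAi at 6 against 0 hpa was 0.17 with an SE of 0.47 (edgeR adjusted p = 0.930). At 48 hpa dd_274 was at 171 to 923 CPM in *equinox* RNAi and at 36.2 to 213 CPM in control, and the log2 fold change from 0 hpa was -2.71 with an SE of 0.48 in *equinox* RNAi (edgeR adjusted p = 1.26e-04). Whether these 4 transcripts share reads through near-identical sequence was not tested.

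The 3 annotated members were all transient in control. The tetraspanin transcript dd_1003 was at 27.1 to 76.9 CPM in control at 0 hpa and at 60.2 to 201 CPM at 6 hpa. In *equinox* RNAi dd_1003 was at 56.0 to 159 CPM at 0 hpa and at 23.1 to 142 CPM at 6 hpa, a log2 fold change of 0.10 with an SE of 0.51 (edgeR adjusted p = 0.970). It fell to 4.66 to 23.0 CPM at 48 hpa in *equinox* RNAi, where the log2 fold change of dd_1003 was -2.93 (edgeR adjusted p = 2.10e-04).

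The lectin-domain transcript dd_10452 was at 0.238 to 5.46 CPM in control at 0 hpa and at 11.5, 9.96, 13.6, 12.4 and 0.712 CPM at 6 hpa. In *equinox* RNAi dd_10452 was at 2.04 to 13.1 CPM at 0 hpa and at 1.53 to 16.2 CPM at 6 hpa (log2 fold change 0.56, edgeR adjusted p = 0.801). The RING-finger transcript dd_10442 was tighter, at 6.47 to 9.30 CPM at 0 hpa and 9.30 to 13.5 CPM at 6 hpa in *equinox* RNAi. Its log2 fold change of 0.57 passed the edgeR test (adjusted p = 0.0106) but did not without replicate 1 at 0 hpa or without replicate 5 at 6 hpa. For dd_10351 and dd_1057, which have a nucleotide match alone and no name here, the change at 6 against 0 hpa did not pass the edgeR test, with log2 fold changes of 0.51 and 0.62 (adjusted p = 0.260 for dd_10351 and 0.757 for dd_1057).

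Within *equinox* RNAi, 96 of the 140 members again had their highest median at 6 hpa, compared with 5.81% of the 12105 transcripts that reached 5 CPM in that treatment. Of the others, 3 stood highest at 0 hpa and 28 at 3 hpa, while 10, 1 and 2 stood highest at the 3 later times. L was higher at 6 than at 0 hpa in 133 members, compared with 33.9% of all, and the difference reached 0.6 in 56 members, compared with 1.69%. The median difference over the members was 0.48 in *equinox* RNAi and 1.35 in control. The rule set a minimum for this difference in control alone, so the 2 medians are a description and not a like comparison. The count of 96 rested on single libraries, since it was 47 without replicate 1 and 50 without replicate 3 at 6 hpa, 30 without the 5 libraries of conflicting labels and 23 with these placed by their time field.

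**Figure D3:**
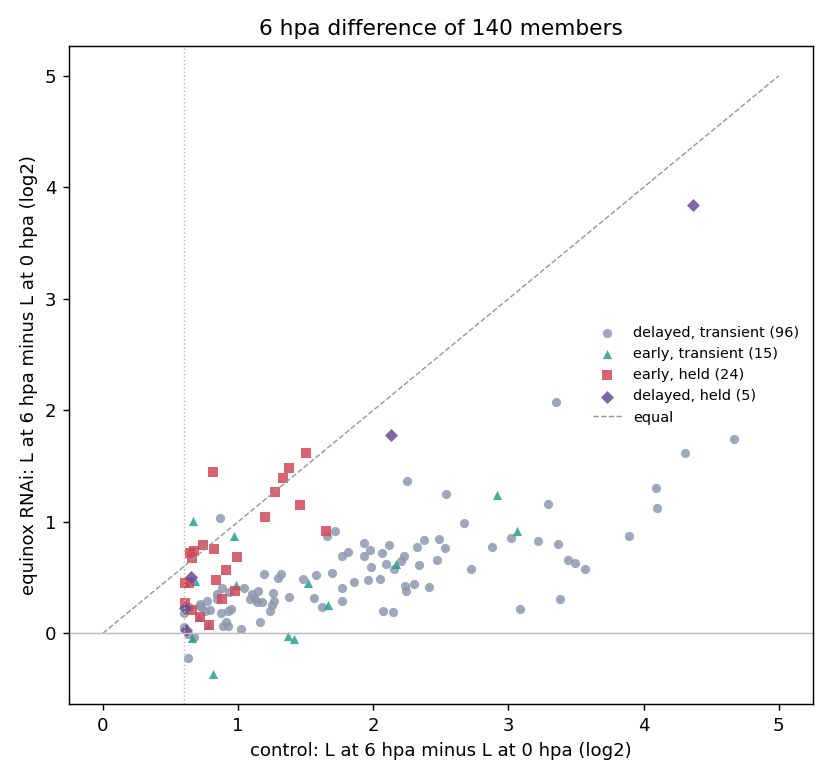
Each point is 1 of the 140 members, with the difference of L between 6 and 0 hpa in control on the x axis and in *equinox* RNAi on the y axis, both in log2 units. The dotted line is the limit of 0.6 that chose the members on the x axis and the dashed line marks equal differences. Because control values alone chose the members, a place below the dashed line is a description. Most delayed, transient members lay well below the dashed line, while several early, held members lay on or above it, among them dd_12695 at 0.81 in control and 1.45 in *equinox* RNAi.

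All 140 members entered the edgeR fit of 20129 transcripts. At 6 against 0 hpa within *equinox* RNAi, 24 members were called higher at an adjusted p under 0.05, or 17.1%, compared with 3.15% of all transcripts tested and 4.50% of those that reached 5 CPM in control. No member was called lower, where 2.26% of all and 3.05% of those that reached 5 CPM were. By an unadjusted p under 0.05 in edgeR 30 members were higher and 0 lower, and DESeq2 called 24 higher and 0 lower. The 24 were 16 of the 24 early, held members, 3 of the 5 delayed, held, 4 of the 15 early, transient and 1 of the 96 delayed, transient. The last was dd_8029, named after its values were seen, at 8.80 to 15.6 CPM at 0 hpa and at 19.96 to 27.9 CPM at 6 hpa in *equinox* RNAi, with a log2 fold change of 1.12 (edgeR adjusted p = 4.44e-06).

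The median log2 fold change over the members at 6 against 0 hpa was 0.40, compared with -0.01 over all transcripts tested. It was 0.77 over the early, held members, with a median SE of 0.14, and 0.28 over the delayed, transient members, with a median SE of 0.61. A difference of the size seen in the delayed, transient members was not detectable with this spread between libraries. The median over all members moved between 0.03 without replicate 1 at 6 hpa and 0.92 without replicate 2 at 0 hpa. Every library at 6 hpa stood above every library at 0 hpa in 20 members in *equinox* RNAi, or 14.3%, compared with 2.88% of all transcripts tested and 3.75% of those that reached 5 CPM. In control, where the rule used this contrast, 36 members did so, as did 2.54% of all and 3.69% of those that reached 5 CPM.

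**Figure D4:**
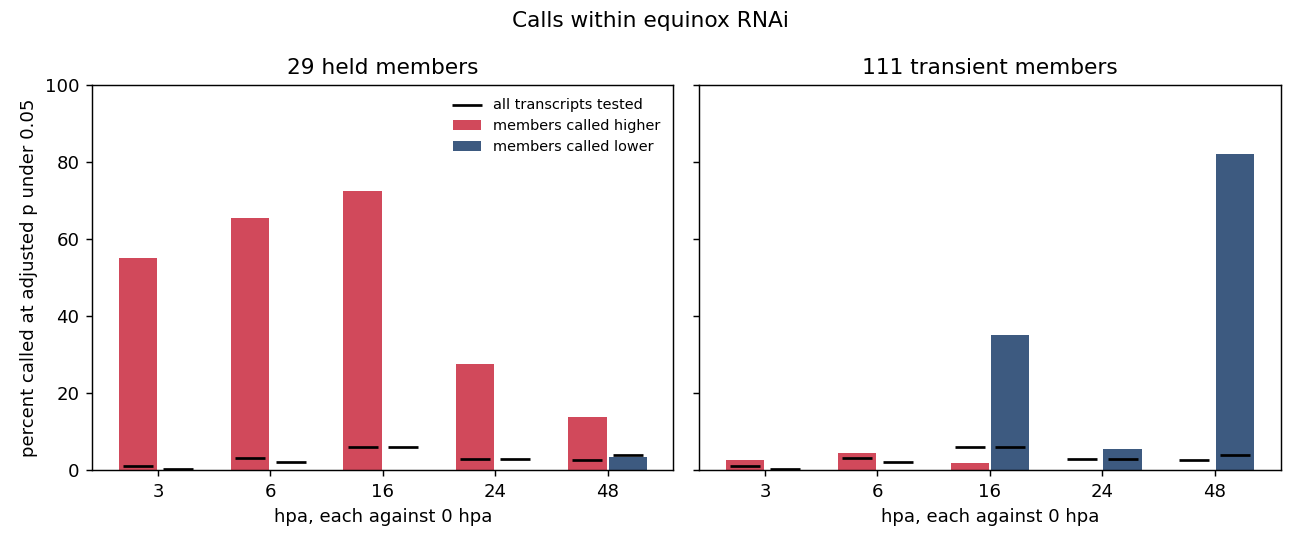
Bars give the percent of the 29 held and the 111 transient members that edgeR called higher (red) or lower (blue) than at 0 hpa within *equinox* RNAi at an adjusted p under 0.05 (y axis), at each time after amputation (x axis, hpa), and black lines the same percent of all 20129 transcripts tested. Of the held members 65.5% were called higher at 6 hpa and 72.4% at 16 hpa, and of the transient members 82.0% were called lower at 48 hpa.

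Most held members were called higher early and up to 16 hpa in *equinox* RNAi. At 3 against 0 hpa, 19 members were called higher by edgeR, 13.6%, compared with 0.979% of all transcripts and 1.40% of those that reached 5 CPM in control, and 16 of the 19 were held members. None was called lower at 3 hpa, where 0.388% of all and 0.502% of those at 5 CPM were, and none was lower at an unadjusted p under 0.05 or by DESeq2. At 16 hpa 23 members were called higher, compared with 6.13% of all and 8.39% of those at 5 CPM, and 21 of the 23 were held. At 24 hpa 8 members were called higher, compared with 2.94% of all and 4.22% of those at 5 CPM, so that the members' 5.71% was near the background. At 48 hpa 4 were, or 2.86%, compared with 2.70% and 3.67%. All of these 8 and 4 members were held, and at 48 hpa they were dd_16222, dd_246, dd_12695 and dd_8302, the last at a log2 fold change of 0.51 (edgeR adjusted p = 0.0330). The count at 24 hpa was 5 without replicate 5 at 0 hpa or replicate 4 at 24 hpa. That at 48 hpa was 2 without replicate 2 or 3 at 0 hpa or replicate 2 at 48 hpa. With the 5 libraries placed by their time field the counts at 3, 16, 24 and 48 hpa were 11, 15, 2 and 2.

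The transient members supplied nearly all the calls below the 0 hpa level. At 16 hpa 39 members were called lower than at 0 hpa in *equinox* RNAi, compared with 6.05% of all transcripts tested and 8.04% of those that reached 5 CPM in control, and all were transient. This count fell to 3 without replicate 2 at 0 hpa, and to 24, 25 and 23 without replicates 1, 3 and 4 at 16 hpa. At 24 hpa 6 members were called lower, or 4.29%, compared with 3.02% of all and 4.29% of those at 5 CPM, and this was 1 without replicate 2 at 0 hpa and 2 without any 1 of replicates 1, 2, 3 and 5 at 24 hpa.

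At 48 hpa 92 members, or 65.7%, were called lower than at 0 hpa in *equinox* RNAi by edgeR, compared with 4.00% of all transcripts tested and 5.57% of those that reached 5 CPM in control. They were 83 of the 96 delayed, transient members, 8 of the 15 early, transient and 1 of the 24 early, held. The median log2 fold change over the 140 members was -2.49, compared with -0.01 over all transcripts, and over the delayed, transient members it was -2.89. Without replicate 2 at 0 hpa the count was 65. DESeq2 called 94 lower.

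The smallest fitted values at 48 against 0 hpa among members of at least 10 CPM included those of dd_1129, dd_1091 and dd_755, which cannot be ranked where the counts are near 0. In *equinox* RNAi dd_1129 was at 36.4, 135, 15.3 and 6.99 CPM at 0 hpa and at 0.281, 0.222, 0.444, 0.0837 and 0.414 CPM at 48 hpa, without overlap. The log2 fold change of dd_1129 was -7.63 with an SE of 1.32 (edgeR adjusted p = 8.06e-05). In control dd_1129 was at 4.12 to 29.2 CPM at 0 hpa and at 0.468 to 1.09 CPM at 48 hpa, also without overlap. For dd_755 and dd_1091 each *equinox* RNAi library at 48 hpa held at most 1 and 3 counts, so no fold change is given, and both passed the edgeR test (adjusted p = 0.00681 for dd_755 and 0.00492 for dd_1091). At 0 hpa these 2 ranged from 0.0328 to 10.3 CPM for dd_755 and from 0.0506 to 31.5 CPM for dd_1091 in *equinox* RNAi, each highest in replicate 2, and for both the libraries at 0 and 48 hpa overlapped.

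From 6 to 16 hpa within *equinox* RNAi, 69 members were called lower by edgeR, 49.3%, compared with 2.93% of all transcripts tested and 4.15% of those that reached 5 CPM in control, and 61 of these were transient. No member was called higher, where 2.09% of all and 2.95% of those at 5 CPM were, with 2 members at an unadjusted p under 0.05 and 0 by DESeq2. This count depended on the libraries and on their labels. It was 31 without replicate 1 at 6 hpa, 39 and 41 without replicates 1 and 4 at 16 hpa, 24 in a fit of the 2 groups alone, 19 without the 5 libraries of conflicting labels and 1 with these placed by their time field. From 3 to 6 hpa 8 members were called higher, compared with 0.979% of all and 1.32% of those at 5 CPM, and 1 lower, compared with 0.656% and 0.901%. The first count was 5 without replicate 1 at 3 hpa or without replicate 1 or 2 at 6 hpa, and the second was 0 without replicate 3 at 3 hpa or without replicate 1 or 2 at 6 hpa.

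Set side by side, the 2 treatments differed most at 0 hpa. The median log2 ratio of *equinox* RNAi to control over the members was 0.91 before the wound response, 0.53 at 3 hpa and -0.17 at 6 hpa, and it was 0.44, 0.05 and 0.11 at the 3 later times. Over all transcripts tested it lay between -0.0032 and 0.04 at every time. These ratios are a description, because the control libraries chose the members for a low level at 0 hpa and a high level at 6 hpa. At 0 hpa the delayed, transient members stood at 1.09 and the early, held members at -0.04, and without replicate 2 of *equinox* RNAi the median over all members was 0.56.

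At 6 hpa 103 of the 140 members had a lower mean log2 CPM with *equinox* RNAi than with the control, as had 9150 of the 20129 transcripts tested. The median was -0.15 over the early, held members, 20 of 24 of which were lower, and -0.45 over the early, transient members, 13 of 15 of which were lower. The median over all members ran from -0.40 without replicate 5 of control to 0.15 without replicate 4 of *equinox* RNAi, so its sign rested on single libraries. At 48 hpa the early, held members stood at -0.36, with 20 of 24 lower in *equinox* RNAi, while 69 of the 96 delayed, transient members were higher. Of all 20129 transcripts tested, 9941 were lower and 10188 higher at that time.

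One member, dd_886, differed between the treatments at every time, and it is named after its values were seen. It was at 4.03, 6.50, 3.92, 13.7 and 5.57 CPM in control at 0 hpa and at 0.253, 0.985, 0.227 and 0.295 CPM in *equinox* RNAi, before any wound response. At 6 hpa dd_886 was at 12.9, 15.4, 13.2, 10.4 and 1.96 CPM in control and at 0.273 to 0.941 CPM in *equinox* RNAi, and the treatments did not overlap. The log2 ratio of dd_886 was -3.63, -3.75 and -3.70 at the first 3 times and -1.54 at 48 hpa. Within *equinox* RNAi its log2 fold change at 6 against 0 hpa was 0.60 with an SE of 0.67 (edgeR adjusted p = 0.742).

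Transcripts that stood highest at 3 hpa in control, chosen by the same rule and kept to the 150 with the largest difference, were set beside the members. Their median log2 fold change within *equinox* RNAi was 0.22 at 3 hpa and -0.06 at 6 hpa, where that of the 140 members was 0.16 and 0.40. Of the 150, 19 were called higher at 3 hpa, where 0.979% of all transcripts were, and 19 at 6 hpa by edgeR, where 3.15% were. From 3 to 6 hpa 0 of the 150 were called higher, with 1 at an unadjusted p under 0.05 and 0 by DESeq2, and 12 were called lower, where 0.979% of all were called higher and 0.656% lower. The ratio of *equinox* RNAi to control over these 150 was -1.12 at 3 hpa in log2 units. The control libraries chose the 150 for a high level at that time, so this ratio is a description. The difference between the 2 lists was not tested.

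Transcripts of known pathways in the annotated part of the transcriptome held no member, and their calls at 6 against 0 hpa in *equinox* RNAi are read against the 3.15% of all transcripts called higher and 2.26% called lower. The matches below come from the same first annotation and are provisional too. Of 10 transcripts on the list of immediate early and MAPK genes, which held TRAF and MAP3K matches alone, 1 was called higher, dd_10569 with a match to TRAF2 (log2 fold change 1.28, edgeR adjusted p = 9.31e-11), and 1 lower, dd_10117, also with a match to TRAF2. All 3 transcripts on the protein folding and ER list were called higher, dd_1039 with a match to the small heat shock protein HSPB1 at 0.80, dd_1058 with a match to the disulfide isomerase PDIA6 at 0.74, and dd_1054 with a match to HSPG2, which is a matrix proteoglycan and no chaperone, at 0.77. Of 4 signal transcripts 1 was called higher, dd_10716 with a match to the receptor NOTCH1, and of 4 matrix and protease transcripts 1, dd_10259 with a match to the secreted protease ADAMTS20 (edgeR adjusted p = 7.91e-09). None of the 5 cytoskeleton and 11 ribosome and translation transcripts was called by edgeR, with 0 and 1 at an unadjusted p under 0.05 and none by DESeq2. All these lists were matched by the start of a gene name and not by function. They so took in TUB under cytoskeleton, EEF1AKMT1, EEF1AKMT3 and EEF1AKMT4 under translation, and TRAF3IP1 among the TRAF matches. Of 8 mitochondrial transcripts 1 was called lower and 0 higher by edgeR, with 2 at an unadjusted p under 0.05, 1 called by DESeq2 and a median log2 fold change of -0.29. The lists for the proteasome, neoblasts, muscle, neurons and gut had 0 transcripts in this part of the annotation, so the cell types behind the members were not checked.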

How the data were processed

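Counts were deposited by the authors as raw whole-number counts per transcript. By the study's methods, reads of 50 bp were mapped to the dd_Smed_v6 transcriptome with bowtie 1.1.2 and counted with bedtools, while the submitters' processing notes name cutadapt 1.8, Bowtie 1.2, SAMtools 1.6 and DESeq. The 58 columns matched the 58 samples. Groups follow the titles. The authors' tables of fold changes and p-values were not used.

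The members and lists were chosen with earlier results of these data known. From the counts, CPM on library totals gave the levels and L. For the tests, edgeR 4.0.16 (R 4.3.3) fitted 1 quasi-likelihood model to the 12 groups together (TMM scaling, robust, filterByExpr with a minimum count of 10), with Benjamini-Hochberg adjustment over the 20129 transcripts tested and a threshold of 0.05. The study compared pairs of groups with DESeq. Log2 ratios of treatments are differences of group means of log2 CPM with a prior count of 2. DESeq2 1.42.0, other scalings and filters, a replicate block and left-out libraries served as alternatives. The named transcripts are the 6 largest and the 5 most abundant members in control, the 5 largest and 5 smallest changes at 6 hpa and 3 and 3 at 48 hpa in *equinox* RNAi among members of at least 10 CPM, the annotated members and those at the limit.

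Replicate numbers are those of the titles, and nothing says that libraries of 1 number share animals, so p-values measure the spread between these libraries of 5 wounds. In deviations from group means, same-numbered libraries correlated at 0.40 to 0.66 over 4 pairs at 16 and 0 hpa, where the block changed no count by over 1.5 times, and less evenly elsewhere. No pair of libraries of a group agreed within sampling noise, the lowest chi-square per degree of freedom being 2.59. Counts were simulated with 99 transcripts, drawn at random from 19738, changed at each size. The test for 6 against 0 hpa in *equinox* RNAi recovered 63 at a log2 change of 1 and 94 at 2, with 3 false calls. No swing shared within a library was simulated. The median SE was 0.18 over all transcripts tested and 0.48 over the members, so these rates do not describe the members. Strand was not given in the sources used here. No sequences are printed.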

Additional observations from a re-analysis of the deposited data

Results flagged for a closer look

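A library was singled out where its gap to the nearest of the other libraries of its group was large for the range of the group (Dixon's criterion). This was looked for in 176 groups of values and found 22 times. Chance gives about 1 in 20 for independent, normally spread values. Here the same libraries recur across members that moved together, so the 22 cannot be read against that rate.

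In control at 6 hpa, replicate 5 was lowest for the median over all members, at 0.16 on the log2 scale against 1.26 to 1.48 in the others, for the delayed, transient members, at -0.0771 against 1.45 to 2.06, and for dd_10452, at 0.712 CPM. Control replicate 3 at 6 hpa was lowest for dd_511 at 845 CPM and for dd_12695 at 25.2 CPM. Control replicate 2 at 48 hpa was lowest for the delayed, transient members, at -1.75 against -1.43 to -1.39. Control replicate 5 at 0 hpa was lowest for the early, held members, at -0.0878, and replicate 1 for dd_678, at 296.5 CPM.

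In control at 0 hpa, replicate 4 was highest for dd_1489 at 3.81 CPM, dd_1155 at 3.71, dd_534 at 15.1, dd_367 at 4.12, dd_1129 at 29.2 and dd_755 at 2.68 CPM. In *equinox* RNAi at 0 hpa, replicate 2 was highest for dd_1155 at 19.1 CPM, dd_367 at 20.8, dd_3193 at 88.6, dd_1091 at 31.5, dd_3759 at 37.0, dd_2213 at 17.2 and dd_755 at 10.3 CPM. In *equinox* RNAi at 6 hpa, replicate 3 was highest for dd_2213 at 16.9 CPM. What set these libraries apart was not tested.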

How the results depend on the processing

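Counts and medians kept within 1.5 times or within 1 SD between libraries in 311 of 334 alternatives. The limit of 1 SD is wide, and a median that changed sign could still count as kept. The median log2 fold change of the members in *equinox* RNAi at 3 against 0 hpa ran from -0.05 to 0.66 with 1 library left out. At 24 against 0 hpa it ran from -0.66 to -0.01. With the 5 libraries of conflicting labels placed by their time field, the members called higher than at 0 hpa in *equinox* RNAi at 3, 16, 24 and 48 hpa were 11, 15, 2 and 2, those called lower from 6 to 16 hpa were 1, and those highest at 6 hpa were 23. With these libraries left out the last 2 were 19 and 30. Over the early, held members, replicate 1 titled 3 hpa stood at 0.58 in log2, where the 0 hpa libraries had -0.11 to 0.07. The one titled 24 hpa had -0.11, where replicates 2 to 5 had 0.04 to 0.30 at 24 hpa and 0.41 to 0.68 at 16 hpa. The one titled 6 hpa had 0.34, where these had 0.55 to 0.65 at 6 hpa and 0.34 to 0.57 at 3 hpa. Those titled 16 and 48 hpa lay within the range of the title's time. Which label holds was not tested. Without the filter 5 were called higher at 24 hpa, and in a fit of the 2 groups alone 24 were called lower from 6 to 16 hpa. A replicate block in the fit of all groups gave 24 members called higher at 6 hpa, as without it. A block in the fit of 2 groups, chosen after seeing the data, gave 2 called higher at 3 hpa, 1 at 48 hpa and 25 called lower from 6 to 16 hpa. Whether libraries of 1 number share more than the number is not known at any pair of times. Same-numbered libraries correlated at -0.50 to 0.44 at 3 and 0 hpa and at -0.33 to 0.63 at 6 and 0 hpa. At each of these 2 pairs of times 2 of 8 libraries correlated best with their own number.

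Leaving out 1 library, the count called higher ran from 5 to 7 at 24 hpa and from 2 to 6 at 48 hpa, the count called lower from 6 to 16 hpa from 31 to 85, and the count highest at 6 hpa from 47 to 113. The rule picked 121 to 140 of the members again without 1 control library, 131 on TMM-scaled sizes and 110 on means.

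The 5 wounds in a library, the 4 to 5 libraries in a group and the spread of the transient members limit what 6 against 0 hpa can show. The shallowest library, with 1312330 counts, was replicate 3 of control at 3 hpa.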
